A study of Homo sapiens with 9 samples.

Results

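The 10 genes described here are transcriptional outputs of the ERK pathway, most of which also restrain it: the phosphatases DUSP4, DUSP5 and DUSP6, the inhibitors SPRY1, SPRY2, SPRY4, SPRED1 and SPRED2, and the transcription factors ETV4 and ETV5. They were taken by name from the 26475 gene symbols of the count table, with no threshold on their values. All 10 were among the 16417 genes that passed the filter on low counts. The cells were A375, a human melanoma line that carries an activating BRAF mutation and in which the RAF-MEK-ERK cascade is therefore switched on. They were treated for 24 h with the vehicle DMSO, with 5 µM TP-472 or with 10 µM TP-472, an inhibitor of the bromodomains of BRD9 and BRD7. Bulk RNA was sequenced from 3 libraries of each group, described as biological replicates of this single line. The comparisons ask which genes respond to TP-472 at each dose and whether the doses differ.

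When ERK is active it phosphorylates transcription factors and relieves repression by CIC, and the genes transcribed as a result include its own brakes. DUSP proteins remove phosphate from ERK and related kinases, whereas Sprouty and SPRED proteins act further up, between receptors and RAF. ETV4 and ETV5 are ETS factors that carry the signal on to further genes. Because their mRNAs follow pathway activity, sets of such genes are used in BRAF-mutant melanoma as a readout of MEK and ERK output.

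Libraries held 42483091 to 51298130 expected counts, and levels are given as CPM, the reads of a gene scaled to a common library total, after TMM scaling for library composition. The test was edgeR's quasi-likelihood test in a single fit of all 9 libraries, and a gene was called changed at a Benjamini-Hochberg adjusted p under 0.05 over all 16417 genes tested. The 10 µM group held a library that stood apart. Over the 13678 tested genes whose mean reached 1 CPM, 10 µM replicate 1 deviated from its group mean by 0.472 (root mean square, log2 scale), against 0.308 and 0.319 for the other 10 µM libraries and 0.153 to 0.227 for the remaining 6. For the 10 genes, and for some of the listed pathway genes, results are given with and without it. Of the melanocyte lineage markers, SOX10 (404 to 426 CPM in DMSO) and MITF (29.9 to 33.3 CPM in DMSO) were present, whereas TYR was at 0 in 9 of 9 libraries, DCT in 8 of 9, and MLANA did not exceed 0.35 CPM. The summed level of the 7 melanocyte markers was 445 to 465 CPM in DMSO, 446 to 459 CPM with 5 µM and 399 to 447 CPM with 10 µM. The summed level of 4 leukocyte markers was 53.3 to 58.7, 83.5 to 84.6 and 87.1 to 130 CPM in the same order, and that of 4 keratinocyte markers was 49.4 to 56.7, 62.0 to 65.9 and 67.1 to 97.7 CPM. The leukocyte sum was nearly all CD68, with CD3E at 0 in 9 of 9 libraries and PTPRC at most at 0.54 CPM, and the keratinocyte sum was mostly KRT10, with KRT1 at 0 in 8 of 9. The 4 fibroblast markers summed to 3.08 to 7.18 CPM and the 3 endothelial markers to 1.84 to 3.70 CPM over all libraries. Whether the rise of CD68 and KRT10 has a part in any result was not tested. The targets of TP-472 were not called changed at the mRNA level: BRD9 was at 37.6 ± 0.968 CPM (mean ± SD, n = 3) in DMSO and 45.4 ± 5.56 CPM at 10 µM (adjusted p = 0.0763), and BRD7 at 88.1 ± 0.374 and 77.0 ± 8.93 CPM (adjusted p = 0.111).

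At 10 µM, 9 of the 10 genes were called changed, 7 lower and 2 higher, where 34.3% of all genes tested were called in either direction, 18% lower and 16.4% higher. DUSP4, DUSP6, SPRY1, SPRY4, SPRED1, ETV4 and ETV5 fell, DUSP5 and SPRY2 rose, and SPRED2 was not called. At 5 µM, 3 of the 10 genes were called, SPRY1, SPRY4 and ETV4, all lower, against 10.2% of all genes in either direction and 5.81% lower. No gene of the 10 was called higher at 5 µM by edgeR, beside 4.4% of all genes, and the count was also 0 at an unadjusted p under 0.05, by DESeq2 and by limma-voom. By edgeR DUSP4 was called higher without 10 µM replicate 1 (adjusted p = 0.00908) and with only the groups compared in the fit (adjusted p = 0.00431). The median log2 fold change of the 10 genes was -0.16 at 5 µM and -0.44 at 10 µM, beside 0.01 over all genes tested at each dose. A fold of at least 1.5 in addition was reached by SPRY1 and SPRY4 at 5 µM, where 4.87% of all genes reached it, and by DUSP5, SPRY1, SPRY4 and ETV4 at 10 µM, where 19.1% did. Both doses were compared with the same 3 DMSO libraries. In bulk RNA a lower level in every cell and fewer cells with the transcript cannot be told apart.

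**Figure D1:**
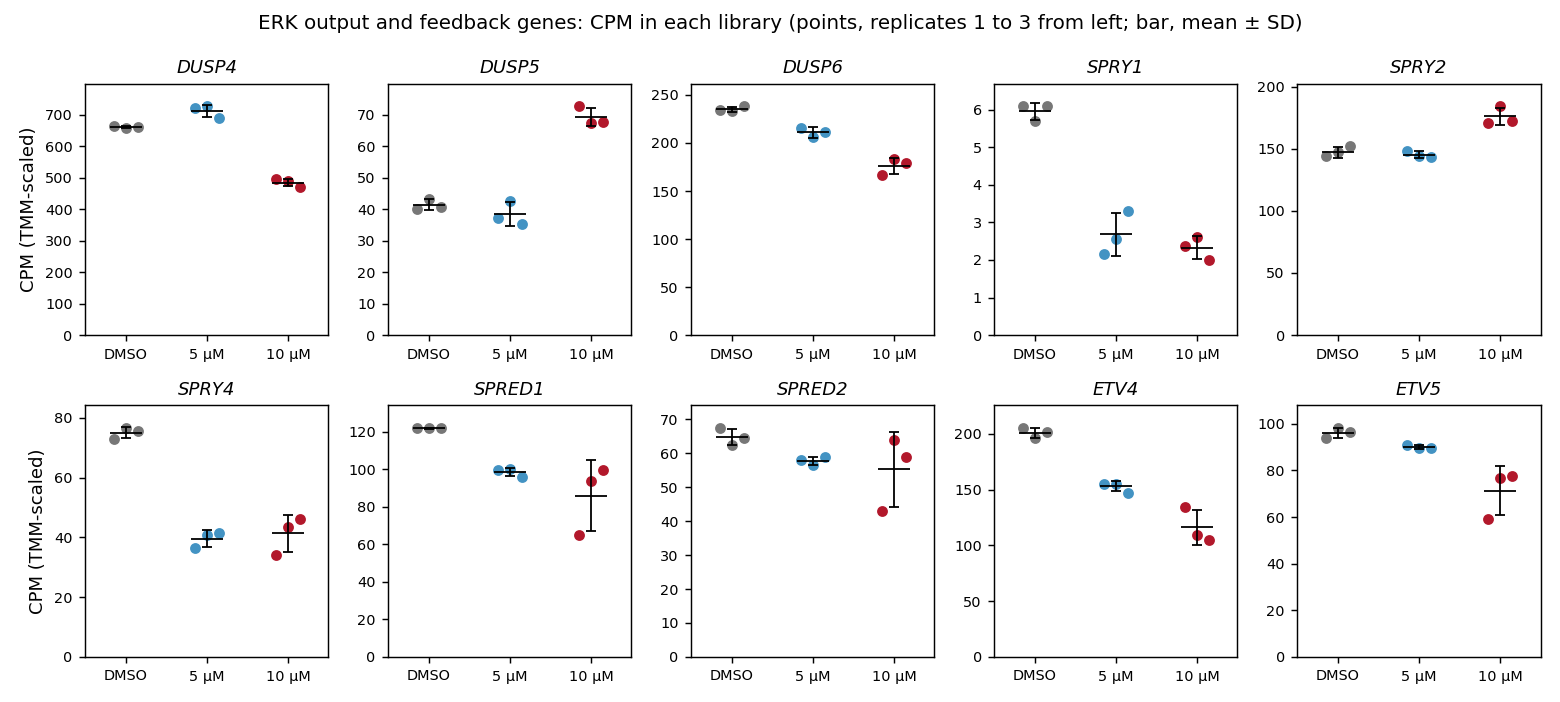
CPM after TMM scaling (vertical axes, each from 0) of the 10 genes in each library of the 3 groups (horizontal axes), with points for replicates 1 to 3 from left to right and bars for the group mean ± SD. DUSP5 and SPRY2 were higher in the 10 µM libraries than in all others, SPRY1 and SPRY4 were already low at 5 µM, and 10 µM replicate 1 lay below the other 10 µM libraries for SPRED1, SPRED2 and ETV5.

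The phosphatases moved in different directions. DUSP4 (chr8:29333064-29350668, minus strand, GRCh38, GENCODE 29), a nuclear phosphatase that is often highly expressed where ERK is active, was at 665, 660 and 662 CPM in DMSO, 721, 727 and 691 CPM at 5 µM and 495, 489 and 471 CPM at 10 µM. The 5 µM libraries thus lay above the DMSO libraries and the 10 µM libraries below both, with no overlap. At 10 µM DUSP4 fell to 0.733 of its DMSO level (log2 fold change -0.45 with a standard error of 0.06, adjusted p = 0.000307; the same error follows every ± sign on a fold change), whereas the difference of 0.11 ± 0.06 at 5 µM did not pass the test (adjusted p = 0.308).

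DUSP6 (chr12:89347232-89353271, minus strand) encodes the cytoplasmic phosphatase that acts specifically on ERK and is the member most often read as a measure of pathway output. Its level was 234, 233 and 238 CPM in DMSO, 216, 206 and 211 CPM at 5 µM and 167, 183 and 179 CPM at 10 µM. The groups formed 3 separate steps downward. The fall at 10 µM was -0.41 ± 0.06 on the log2 scale (adjusted p = 0.000987), a decrease to 0.752 of the DMSO level, and the value at 5 µM was -0.15 ± 0.06 (adjusted p = 0.177). Of the exonic length of DUSP6, 39.4% overlaps AC024909.2, a gene annotated on the opposite strand, and the sources used here do not say whether strand was used in counting, so a share of these counts is uncertain. The other 9 genes had no such overlap.

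DUSP5 (chr10:110497838-110511544, plus strand), an inducible nuclear phosphatase of ERK, went the other way. It was at 40.1, 43.4 and 40.7 CPM in DMSO, 37.4, 42.8 and 35.2 CPM at 5 µM and 72.7, 67.4 and 67.8 CPM at 10 µM. The DMSO and 5 µM libraries overlapped, and each 10 µM library was above all 6 of them. DUSP5 rose 1.67-fold at 10 µM, a log2 fold change of 0.74 ± 0.09 (adjusted p = 0.000185), and its value at 5 µM was -0.11 ± 0.09 (adjusted p = 0.542).

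The Sprouty genes also differed among themselves. SPRY1, SPRY2 and SPRY4 encode adaptor-like inhibitors that are induced by growth factor signalling and block the path from receptor to RAF. SPRY1 and SPRY4 fell at both doses and SPRY2 rose at 10 µM. RefSeq (GRCh38.p14) promoters were available for 6 of the 10 genes, DUSP6, SPRY1, SPRY2, SPRY4, SPRED1 and SPRED2. The source listed 3 starts for SPRY2, 2 each for SPRY1 and SPRED2, and 1 for each other gene. Only the window before 1 listed start of each gene was searched. The windows of SPRY4, DUSP6 and SPRED1 lie inside the GENCODE gene, downstream of its start, and that of SPRED2 partly overlaps its gene. Which start was used in these cells was not tested. The 250 bases before the listed start of the 3 Sprouty genes are shown because these paralogs moved in opposite directions; they lie at chr4:123396545-123396794 (plus strand), chr5:142324248-142324497 (minus strand) and chr13:80341127-80341376 (minus strand), written 5′ to 3′ along the gene, with matches to searched motifs in capitals.
SPRY1: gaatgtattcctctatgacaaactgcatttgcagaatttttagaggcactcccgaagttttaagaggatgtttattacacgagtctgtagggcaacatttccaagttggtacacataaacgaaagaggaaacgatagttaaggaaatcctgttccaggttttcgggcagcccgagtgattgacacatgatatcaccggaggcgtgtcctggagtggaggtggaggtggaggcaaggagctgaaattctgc
SPRY4: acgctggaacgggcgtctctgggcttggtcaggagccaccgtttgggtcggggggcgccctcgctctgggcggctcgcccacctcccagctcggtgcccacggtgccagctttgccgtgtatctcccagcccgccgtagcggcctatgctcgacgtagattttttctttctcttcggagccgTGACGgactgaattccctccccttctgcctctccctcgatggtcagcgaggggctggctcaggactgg
SPRY2: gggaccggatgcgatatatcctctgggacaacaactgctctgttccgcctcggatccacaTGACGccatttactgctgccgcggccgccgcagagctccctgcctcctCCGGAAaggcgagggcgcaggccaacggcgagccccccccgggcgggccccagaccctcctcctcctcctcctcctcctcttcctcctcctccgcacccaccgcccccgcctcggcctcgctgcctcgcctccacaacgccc
The motifs, searched on both strands, were the AP-1 site TGANTCA, the CRE TGACGTCA and its shorter form TGACG, and the ETS site CCGGAAGT and its shorter form CCGGAA. The CIC site was searched only as TGAATGAA and TGAATGGA, and other forms of it were not. The shorter forms of the CRE and ETS sites are contained in the longer. With bases counted backward from the start as -1, SPRY2 held TGACG at -190 and CCGGAA at -142, and SPRY4 held TGACG at -68. The SPRY1 window held no match to the motifs as written. The other 3 promoters held no match to the motifs as written, which does not exclude other forms of these sites. TGACG was found in 21.2% and CCGGAA in 14.5% of the 35116 promoters of the same length, TGANTCA in 6.57%, TGACGTCA in 1.65%, CCGGAAGT in 3.42%, TGAATGAA in 1.40% and TGAATGGA in 0.832%. A match describes letters only and is not evidence of binding.

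SPRY4 (chr5:142310427-142326455, minus strand) was at 72.9, 76.5 and 75.6 CPM in DMSO, 36.3, 40.9 and 41.5 CPM at 5 µM and 34.2, 43.3 and 46.2 CPM at 10 µM. Every treated library was below every DMSO library, and the 2 doses overlapped. The log2 fold change was -0.92 ± 0.11 at 5 µM (adjusted p = 0.000889) and -0.86 ± 0.11 at 10 µM (adjusted p = 0.000311), which correspond to 0.527 and 0.550 of the DMSO level.

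SPRY1 (chr4:123396795-123403760, plus strand) had the lowest level of the 10 genes and, of the 10, the lowest fold change against DMSO at each dose. It was at 6.08, 5.70 and 6.08 CPM in DMSO, 2.17, 2.56 and 3.31 CPM at 5 µM and 2.38, 2.60 and 2.00 CPM at 10 µM, from 98 to 302 counts per library. As for SPRY4, the treated libraries lay below the DMSO libraries at both doses and the doses overlapped. SPRY1 fell to 0.450 of its DMSO level at 5 µM (log2 fold change -1.15 ± 0.20, adjusted p = 0.00567) and to 0.391 at 10 µM (-1.36 ± 0.20, adjusted p = 0.000653).

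SPRY2 (chr13:80335976-80340951, minus strand) was at 144, 147 and 152 CPM in DMSO, 148, 144 and 143 CPM at 5 µM and 171, 184 and 172 CPM at 10 µM. Only the 10 µM libraries stood apart, above the other 6. The rise at 10 µM was 1.19-fold (log2 fold change 0.25 ± 0.06, adjusted p = 0.0133), and it did not pass the test when DMSO replicate 1 (adjusted p = 0.0726) or DMSO replicate 2 (adjusted p = 0.0653) was left out. At 5 µM the log2 fold change was -0.02 ± 0.06 (adjusted p = 0.891).

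SPRED1 and SPRED2 encode membrane-associated relatives of Sprouty, and SPRED1 recruits the RAS GTPase-activating protein NF1. SPRED1 (chr15:38252326-38357249, plus strand) was at 122 CPM in each of the 3 DMSO libraries, 99.8, 100 and 96.2 CPM at 5 µM and 64.8, 93.9 and 99.6 CPM at 10 µM. All treated libraries were below DMSO, and 10 µM replicate 1 lay well under the other 5 treated libraries. SPRED1 fell at 10 µM (log2 fold change -0.50 ± 0.14, adjusted p = 0.0175), and the value was -0.33 ± 0.04 without replicate 1 (adjusted p = 1.55e-05). With any DMSO library left out the adjusted p was 0.0522 to 0.0532. At 5 µM the value was -0.30 ± 0.13 (adjusted p = 0.204).

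SPRED2 (chr2:65310851-65432637, minus strand) was at 67.4, 62.4 and 64.6 CPM in DMSO, 58.0, 56.5 and 59.0 CPM at 5 µM and 43.0, 63.9 and 59.0 CPM at 10 µM. The 5 µM libraries lay below DMSO, whereas at 10 µM replicate 2 fell within the DMSO range. Neither the log2 fold change of -0.16 ± 0.13 at 5 µM (adjusted p = 0.503) nor that of -0.23 ± 0.13 at 10 µM (adjusted p = 0.199) passed the test, and the latter was -0.08 ± 0.06 without 10 µM replicate 1 (adjusted p = 0.277).

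Both ETS factors fell at 10 µM. ETV4 (chr17:43527844-43579620, minus strand) was at 205, 196 and 202 CPM in DMSO, 155, 155 and 147 CPM at 5 µM and 134, 109 and 105 CPM at 10 µM. The 3 groups did not overlap and each was lower than the previous. ETV4 fell to 0.760 of its DMSO level at 5 µM (log2 fold change -0.40 ± 0.09, adjusted p = 0.0253) and to 0.579 at 10 µM (-0.79 ± 0.09, adjusted p = 0.000178). The call at 5 µM was lost when any DMSO or 5 µM library was left out (adjusted p = 0.0815 to 0.111).

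ETV5 (chr3:186046308-186110318, minus strand) was at 93.7, 98.1 and 96.5 CPM in DMSO, 91.0, 89.5 and 89.6 CPM at 5 µM and 59.0, 76.9 and 77.5 CPM at 10 µM. Its 5 µM libraries were a little below DMSO without overlap, and its 10 µM libraries were lower again. The log2 fold change was -0.09 ± 0.10 at 5 µM (adjusted p = 0.658) and -0.43 ± 0.10 at 10 µM (adjusted p = 0.00876). CIC, the repressor that ERK signalling inactivates and that acts on ETV4, ETV5, DUSP6 and SPRY4, was at 105 ± 1.53 CPM in DMSO and 84.3 ± 15.7 CPM at 10 µM and was not called (log2 fold change -0.31 ± 0.13, adjusted p = 0.0852). Without 10 µM replicate 1 its value was -0.18 ± 0.07 and was called (adjusted p = 0.0442).

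**Figure D2:**
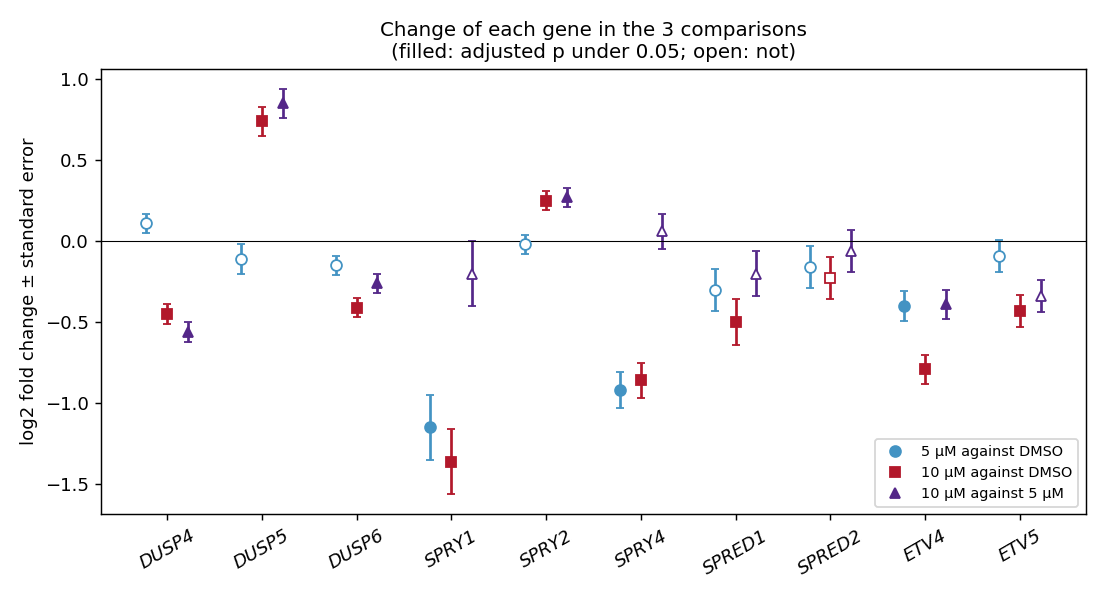
Log2 fold change ± standard error (vertical axis) of each of the 10 genes (horizontal axis) for 5 µM against DMSO (circles), 10 µM against DMSO (squares) and 10 µM against 5 µM (triangles), filled where the adjusted p was under 0.05. SPRY1 and SPRY4 were near their final level at 5 µM, with 10 µM against 5 µM at -0.20 and 0.06. DUSP4, DUSP5, DUSP6, SPRY2, SPRED1 and ETV5 were called at 10 µM and not at 5 µM.

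The direct comparison of the doses separated these patterns. At 10 µM against 5 µM, 5 of the 10 genes were called, DUSP5 and SPRY2 higher and DUSP4, DUSP6 and ETV4 lower, where 8.4% of all genes tested were called in either direction, 2.87% higher and 5.53% lower. DUSP5 was 1.80-fold higher at 10 µM than at 5 µM (log2 difference 0.85 ± 0.09, adjusted p = 0.000518), and DUSP4 was at 0.681 of its 5 µM level (-0.56 ± 0.06, adjusted p = 0.000518). These calls held with any single library left out. DUSP5 was the 1 gene of the 10 that also reached a 1.5-fold difference between the doses, beside 4.01% of all genes. DUSP6 differed by -0.26 ± 0.06 (adjusted p = 0.0369), SPRY2 by 0.27 ± 0.06 (adjusted p = 0.0301) and ETV4 by -0.39 ± 0.09 (adjusted p = 0.0311). Each of these calls was lost when any DMSO or any 5 µM library was left out. Leaving out 10 µM replicate 2 also lost SPRY2 and ETV4, and leaving out 10 µM replicate 3 lost DUSP6 and ETV4. SPRY1 (-0.20 ± 0.20, adjusted p = 0.565), SPRY4 (0.06 ± 0.11, adjusted p = 0.779), SPRED1 (-0.20 ± 0.14, adjusted p = 0.401), SPRED2 (-0.06 ± 0.13, adjusted p = 0.795) and ETV5 (-0.34 ± 0.10, adjusted p = 0.0714) were not called different between the doses.

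By plain overlap of libraries, 8 of the 10 genes stood apart between 5 µM and DMSO, 7 lower and 1 higher, beside 48.7% of all genes tested. At 10 µM against DMSO 9 stood apart, 7 lower and 2 higher, beside 49.3%, and at 10 µM against 5 µM 6 stood apart, beside 28.3%.

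All 9 libraries entered the estimate of spread used in each comparison, so leaving out 10 µM replicate 1 also bears on the count at 5 µM. Without it 7 of the 10 genes were called at 5 µM, as were 34.2% of all genes tested. DUSP4 was then higher (log2 fold change 0.11, adjusted p = 0.00908), and DUSP6 (-0.15, adjusted p = 0.00222), SPRY1 (-1.15, adjusted p = 0.000256), SPRY4 (-0.92, adjusted p = 8.07e-09), SPRED1 (-0.30, adjusted p = 2.76e-05), SPRED2 (-0.16, adjusted p = 0.0196) and ETV4 (-0.40, adjusted p = 9.2e-07) were lower. At 10 µM 2 genes were called higher and 7 lower with or without it, while the share of all genes called went from 34.3% to 48.8%. Its removal moved ETV4 from -0.79 to -0.91, SPRY4 from -0.86 to -0.75 and ETV5 from -0.43 to -0.32 at 10 µM. DUSP4 was then at -0.47, DUSP5 at 0.70, DUSP6 at -0.38, SPRY1 at -1.37 and SPRY2 at 0.27 at this dose. At 10 µM against 5 µM 6 genes were called without it, ETV5 being added (-0.22, adjusted p = 0.00201), where 24.2% of all genes were.

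**Figure D3:**
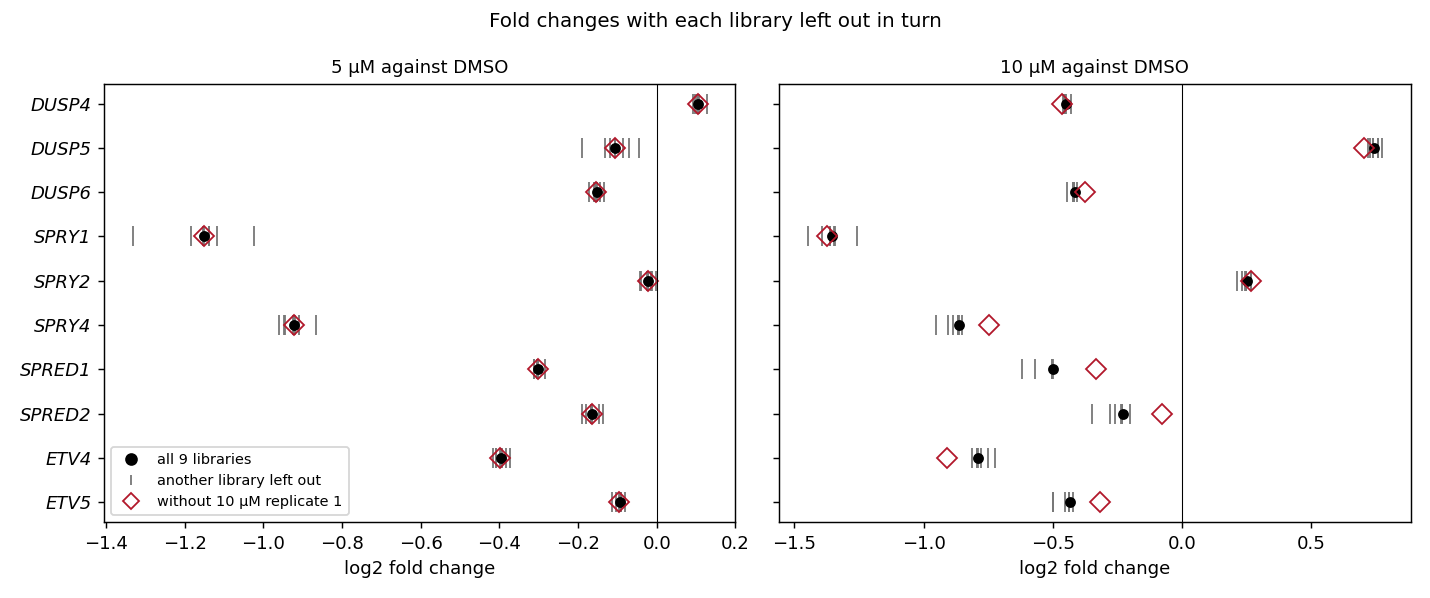
Log2 fold change (horizontal axes) of each of the 10 genes (vertical axis) at 5 µM against DMSO (left) and 10 µM against DMSO (right), from all 9 libraries (black points), with another library left out (grey ticks) and without 10 µM replicate 1 (open diamonds). No gene changed direction, and removal of 10 µM replicate 1 moved SPRED1 from -0.50 to -0.33 and SPRED2 from -0.23 to -0.08 at 10 µM.

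Compared per kilobase of exon in DMSO, DUSP4 was highest at 91.3 ± 0.306 CPM per kb, followed by ETV4 at 71.6 ± 1.64, DUSP6 at 51.6 ± 0.586, SPRY2 at 48.6 ± 1.36 and ETV5 at 22.2 ± 0.557 CPM per kb (SD, n = 3). These 5 did not overlap in their libraries. DUSP5 (15.7 to 17 CPM per kb), SPRED1 (15.6 to 15.7), SPRED2 (15 to 16.2) and SPRY4 (14.6 to 15.4) formed a cluster whose neighbours could not be ordered, and SPRY1 was far below at 1.97 ± 0.0693 CPM per kb. At 10 µM the order was DUSP4 (66.9 CPM per kb), SPRY2 (57.8), ETV4 (41.4), DUSP6 (38.8), DUSP5 (27.1), ETV5 (16.4), SPRED2 (13.3), SPRED1 (11.1), SPRY4 (8.29) and SPRY1 (0.769), so SPRY2 passed ETV4 and DUSP6, and DUSP5 passed ETV5. At this dose the libraries of ETV4 and DUSP6 overlapped, as did those of neighbours from ETV5 down to SPRY4.

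Further DUSP, SPRY and SPRED genes were measured beside the 10. Of these 9, edgeR called 3 higher and 0 lower at 5 µM, where 4.4% of all genes tested were called higher and 5.81% lower. At 10 µM it called 3 higher and 2 lower, where 16.4% and 18% of all genes were. The median log2 fold changes were 0.09 and -0.01. At 5 µM limma-voom called 1 of them higher, and without 10 µM replicate 1 edgeR called 3 higher and 1 lower, the latter being DUSP9 (-0.66, adjusted p = 0.0141). At 10 µM the counts without it were again 3 and 2. DUSP10, a phosphatase that acts mainly on the stress kinases JNK and p38, was at 10.5 ± 1.12 CPM in DMSO, 19.9 ± 0.812 at 5 µM and 37.3 ± 2.67 at 10 µM, and rose at each dose (log2 fold changes 0.92 and 1.83, adjusted p = 0.000504 and 1.48e-06). DUSP1, an immediate-early phosphatase of the MAP kinases, rose from 12.3 ± 0.907 CPM to 17.3 ± 0.546 and 28.6 ± 5.47 CPM (log2 fold changes 0.49 and 1.22, adjusted p = 0.0443 and 0.000111). DUSP8, at only 0.190 ± 0.139 CPM in DMSO, rose to 0.966 ± 0.219 and 2.1 ± 0.793 CPM (adjusted p = 0.0245 and 0.00111). DUSP9 fell at 10 µM from 5.56 ± 0.375 to 2.38 ± 0.644 CPM (log2 fold change -1.22, adjusted p = 0.00284).

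Other known ERK outputs were called in both directions. Of 15, 2 rose and 3 fell at 5 µM, beside 10.2% of all genes called, and 4 rose and 7 fell at 10 µM, beside 34.3%. The medians were -0.14 and -0.06, and the latter turned to 0.07 without 10 µM replicate 1. EGR1, an immediate-early transcription factor, had the highest fold change at 10 µM of the 60 pathway genes listed beside the 10, with 6.60 ± 1.01 CPM in DMSO, 28.1 ± 2.11 CPM with 5 µM and 122 ± 3.37 CPM with 10 µM (log2 fold changes 2.09 and 4.21, adjusted p = 1.1e-05 and 3.87e-08). TRIB2, a pseudokinase, fell from 81.3 ± 3.48 to 39.5 ± 4.0 and 21.1 ± 3.69 CPM (log2 fold changes -1.04 and -1.95, adjusted p = 0.000970 and 5.24e-06). LZTS1 fell at each dose too (-1.10 and -1.69, adjusted p = 0.00342 and 7.46e-05). The cytokine gene LIF fell to a like extent at 5 µM and 10 µM (-0.50 and -0.46, adjusted p = 0.00106 and 0.000408), with a difference between doses of 0.04 (adjusted p = 0.772).

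The components of the cascade itself are read against the same shares of all genes, 10.2% at 5 µM and 34.3% at 10 µM. Of 13 receptor-to-RAS adaptors and RAS regulators none was called at 5 µM by edgeR, DESeq2 or limma-voom, with 1 higher at an unadjusted p under 0.05, and at 10 µM 2 rose and 3 fell, a count near the share of all genes. The median log2 fold change at 10 µM was -0.33, and -0.09 without 10 µM replicate 1. HRAS rose from 35.3 ± 2.38 to 69.2 ± 19.5 CPM (log2 fold change 0.97, adjusted p = 0.00192), and the adaptor SHC1 and the RAS GTPase-activating protein RASA1 fell (-0.33 and -0.51, adjusted p = 0.00196 and 0.0118). Without 10 µM replicate 1 HRAS was at 0.71 and RASA1 at -0.36. Of 13 RAF, MEK and ERK kinases, scaffolds and RAF regulators 1 fell at 5 µM, and 1 rose and 3 fell at 10 µM, again near the share of all genes. MAPK3, which encodes ERK1, fell at both doses, from 57.9 ± 0.688 CPM to 40.1 ± 0.380 and 32.2 ± 7.52 CPM (log2 fold changes -0.53 and -0.85, adjusted p = 0.0369 and 0.0012). BRAF fell at 10 µM (-0.46, adjusted p = 0.0239), as did the scaffold IQGAP1 (-0.65, adjusted p = 0.0259), and the scaffold KSR1 rose (0.74, adjusted p = 0.0493). Without 10 µM replicate 1 these values were -0.34, -0.41 and 0.99, and MAPK3 was at -1.05. With that library kept, limma-voom called 0 genes of this list higher at 10 µM. The KSR1 level in 10 µM replicate 1 (2.97 CPM) lay within its DMSO range (2.72 to 3.18 CPM).

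Of 10 transcription factors that ERK signalling regulates, 2 fell at 5 µM, beside 10.2% of all genes called in either direction and 5.81% lower. At 10 µM 4 fell, beside 34.3% in either direction and 18% lower. The medians were -0.17 and -0.25. The ETS factors ELK3 (-0.27 and -0.31, adjusted p = 0.0442 and 0.00977) and ETS2 (-0.62 and -0.34, adjusted p = 0.0045 and 0.027) fell at both doses. ATXN1, a partner of CIC, fell at 10 µM (-1.0, adjusted p = 0.00796, and -0.73 without 10 µM replicate 1), as did the ETS repressor ERF (-0.30, adjusted p = 0.0121). Without 10 µM replicate 1 more of these genes were called at 5 µM, where 34.2% of all genes were: 2 higher and 9 lower of the 15 other outputs, 2 and 3 of the 13 adaptors and RAS regulators, 0 and 5 of the 13 kinases, scaffolds and RAF regulators, and 0 and 5 of the 10 transcription factors. At 10 µM, where 48.8% of all genes were called, the counts without it were 5 and 7, 4 and 4, 2 and 6, and 1 and 5 in the same order.

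**Figure D4:**
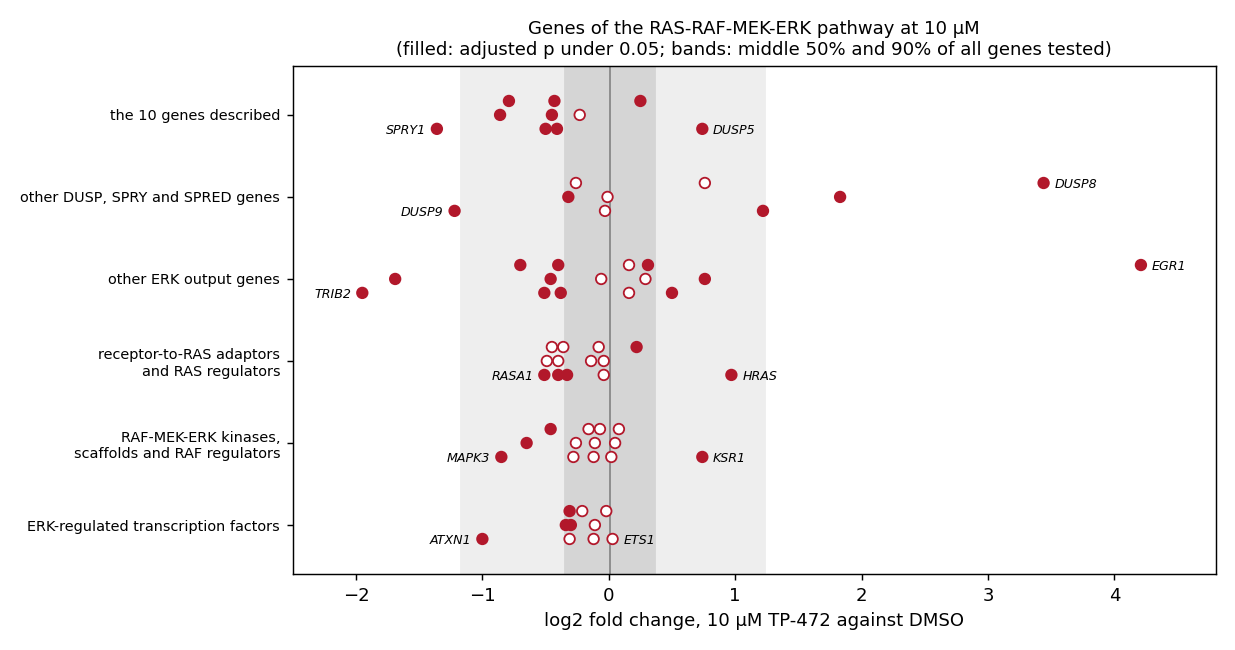
Log2 fold change at 10 µM against DMSO (horizontal axis) of the 10 genes and of 60 further genes in 5 lists of the pathway (rows), filled where the adjusted p was under 0.05, with the lowest and highest gene of each row named and grey bands for the middle 50% and 90% of all genes tested. DUSP5 at 0.74 and SPRY1 at -1.36 bound the 10 genes, and EGR1 at 4.21 and TRIB2 at -1.95 bound the further genes.

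Over the 9 libraries, DUSP5 and SPRY2 ran together (Pearson r of log2 CPM 0.93), as did SPRY1 and SPRY4 (0.92), DUSP6 and ETV5 (0.93) and SPRED1 and SPRED2 (0.91), whereas DUSP4 and DUSP5 ran opposite (-0.96). These coefficients describe 9 libraries in 3 groups and largely restate the group differences or, for some genes, the level in 10 µM replicate 1. SPRED2 was not called at either dose, and 10 µM replicate 1 was the lowest library of both SPRED2 (43.0 CPM) and SPRED1 (64.8 CPM). Among 13678 genes searched, the gene most like each was NCKAP5 for DUSP4 (0.986), COX19 for DUSP5 (0.991), MALT1 for DUSP6 (0.995), DHRS13 for SPRY1 (0.979) and CRISPLD2 for SPRY2 (0.988). It was OLFML2A for SPRY4 (0.987), ACACA for SPRED1 (0.997), NUP155 for SPRED2 (0.984), TNFAIP8L1 for ETV4 (0.994) and ITPR3 for ETV5 (0.997).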

How the data were processed

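The 9 libraries came from A375 cells in groups of 3. Their values were deposited as RSEM expected counts, a single table with a row for each gene symbol and no scaling between libraries. The submitters' processing notes name Bowtie2 2.1.0, RSEM 1.2.15 and hg38. The sources describe the RNA both as oligo-dT selected and as depleted of ribosomal RNA, and the annotation and strand setting were not given in the sources used here. Of the values in a library 10.6% to 13.8% were not whole, and all were rounded.

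The test used edgeR 4.0.16 (R 4.3.3, limma 3.58.1) with TMM factors (0.9569 to 1.029), filterByExpr, 1 quasi-likelihood fit of all 9 libraries without covariates, 3 comparisons, and Benjamini-Hochberg adjustment over 16417 genes. Standard errors were derived from the log2 fold change and its F statistic. Differences were tested against the spread between libraries within groups, estimated from all 9 libraries with sharing of information across genes. The series text calls the 3 libraries of each group biological replicates. Alternatives were DESeq2 1.42.0 as a test and for its size factors, limma-voom, upper-quartile factors, 2 other filters on low counts, a replicate block, only the groups compared, a fold limit of 1.5, and leaving out each library.

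The 10 genes, the pathway lists and the motifs were chosen with earlier results of these data known. Named beside the 10 were up to 4 genes per list with the smallest p at 10 µM against DMSO and a mean of at least 1 CPM, the gene most correlated with each of the 10, CIC, BRD7 and BRD9. Some items that these rules name are not reported here. Positions and exonic lengths came from GENCODE 29, promoters from RefSeq.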

Additional observations from a re-analysis of the deposited data

Results flagged for a closer look

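For 5 of the 10 genes the change against DMSO differed between the doses, by the test of 10 µM against 5 µM (edgeR's quasi-likelihood test, Benjamini-Hochberg adjusted). The same test called 8.4% of all genes tested. On the log2 scale the difference was 0.85 for DUSP5 (41.4 CPM in DMSO, 38.5 at 5 µM and 69.3 at 10 µM) and 0.27 for SPRY2 (147, 145 and 176 CPM). It was -0.56 for DUSP4 (662, 713 and 485 CPM), -0.26 for DUSP6 (235, 211 and 176 CPM) and -0.39 for ETV4 (201, 153 and 116 CPM). The calls of SPRY2, DUSP6 and ETV4 were lost when any DMSO or any 5 µM library was left out, whereas those of DUSP4 and DUSP5 held. DUSP4 is the gene whose mean was above DMSO at 5 µM and below it at 10 µM, although only the latter difference passed the test with all 9 libraries.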

How the results depend on the processing

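Leaving out 1 library gave 2 to 7 calls at 5 µM (0 to 1 higher, 2 to 6 lower), where 3.99% to 34.2% of all genes were called. At 10 µM it gave 7 to 9 (1 to 2 higher, 6 to 7 lower), beside 22.3% to 48.8%. At 10 µM against 5 µM it gave 2 to 6 (1 to 2 higher, 1 to 4 lower), beside 3.22% to 24.2%. With only the 2 groups compared in the fit, 7 were called at 5 µM (1 higher, 6 lower), where 39.9% of all genes were. Between the doses this fit called 2 (1 higher, 1 lower), beside 2.09% of all genes, and SPRED1 at 10 µM was not called (adjusted p = 0.0556). A fold of at least 1.5 left 4 calls at 10 µM (1 higher, 3 lower), beside 19.1% of all genes, and 1 between the doses (1 higher, 0 lower), beside 4.01%. With no fold limit, edgeR called 4 lower between the doses at an unadjusted p under 0.05. At an adjusted p under 0.05 and no fold limit, DESeq2 called 4 lower and limma-voom 3. Between the doses, upper-quartile factors gave 3 calls (1 lower), beside 8.06% of all genes, and no filter on low counts gave 3 (1 higher), beside 5.72%. The replicate numbers did not pair the libraries: deviations from group means correlated at -0.049 to 0.032 over 9 same-numbered pairs, and 9 of 18 best matches had the same number. A replicate block left 3 calls between the doses (1 higher), beside 6.03% of all genes, and changed no other call. The direction reversed for differences between doses that were not called: SPRY4, at 0.06, went to -0.0011 without 5 µM replicate 1 and to -0.0283 without 10 µM replicate 3 in a range of -0.0283 to 0.1758, and SPRED2, at -0.06, went to 0.0864 without 10 µM replicate 1 in a range of -0.1858 to 0.0864. Apart from the leave-outs and the fold limit, 225 of 240 values of single genes kept direction and call, 10 lost and 5 gained the call. The cause was not tested. With 98 counts at the lowest, SPRY1 was the least precisely measured of the 10 genes.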
